A study of Mus musculus with 9 samples.

Results

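The long intergenic non-coding RNAs (lincRNAs) expressed from the autosomes of the fetal mouse gonad were examined in ovary, testis and testis lacking Sox9. They were chosen as genes that GENCODE M21 types as lincRNA, on an autosome, with a mean level of at least 1 over all samples, leaving out named imprinted transcripts. The level is in log2 CPM (CPM, the reads of a gene scaled to a common library total), so 1 unit is a 2-fold difference. Of 15300 genes in the authors' deposited tables, 361 were lincRNAs, of which 347 were autosomal and 183 of those reached the minimum. H19, Meg3 and Mirg were removed as imprinted, which left 180 genes. They were thus selected on the measured mean level, so the levels themselves are a description and carry no test.

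RNA was sequenced from 9 samples of gonads freed of the mesonephros in C57BL/6 fetuses at E13.5 (days after conception), as read pairs of 150 nt. Control ovaries (XX-WT, 3 samples) and control testes (XY-WT, 3 samples) carried Sox9flox/flox without Cre. The third group (XY-KO, 3 samples) were testes of genotype AMH-Cre; Sox9flox/flox, in which the Cre is driven by the AMH promoter, a promoter of Sertoli cells. The deletion thus follows the activity of that promoter and is not meant to reach the other gonadal cells. It is not stated whether each sample was a single fetus or a pool, so p-values measure only the spread between these samples, which may be technical. The values available here are the authors' limma results for each pair of groups, with no value per sample, so neither the depth nor the overlap of single samples could be given. In their place each gene has a level for each group, derived from the deposited mean and fold changes, and each fold has a 95% interval computed from the deposited fold change and t.

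LincRNAs are transcribed by RNA polymerase II and usually capped and spliced, but have no long conserved reading frame. Some stay in the nucleus and organise bodies such as speckles and paraspeckles, some are the primary transcripts of small RNAs, and many lie beside genes for developmental regulators and share their expression pattern. In the fetal gonad the supporting cells become Sertoli cells under SRY and SOX9, or pre-granulosa cells in the ovary, where germ cells also enter meiosis. In bulk tissue, fewer cells of a type and less RNA per cell cannot be told apart.

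Several of these lincRNAs contain microRNAs, the short guides that repress messenger RNAs through their seed, bases 2 to 8. Those of Gm2044 and 6720427I07Rik are shown because the host of miR-202, a gonad-enriched microRNA, was lower in the ovary (below) and its seed is close to that of let-7. The sequences are RefSeq mature microRNAs on GRCm38.p6, 5′ to 3′, with the seed in capitals.
mmu-miR-202-3p: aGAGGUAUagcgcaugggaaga
mmu-miR-202-5p: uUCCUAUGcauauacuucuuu
mmu-let-7a-5p: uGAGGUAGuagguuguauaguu
mmu-let-7d-5p: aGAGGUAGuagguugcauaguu
mmu-let-7f-5p: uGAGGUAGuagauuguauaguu
mmu-miR-181b-5p: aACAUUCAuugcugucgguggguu
The seeds of let-7a, let-7d and let-7f are identical, and that of miR-202-3p shares 6 of their 7 bases. The mature microRNAs themselves were not measured by these libraries. miR-181b lies in A430106G13Rik, which is described with the comparison of Sox9-deleted testis and ovary.

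Promoter windows (250 bases before to 50 after the RefSeq start, GRCm38.p6) matched 47 of the 180 genes by symbol or synonym and position, and 32 of these began within 100 bases of the GENCODE start. Coordinates throughout are for GRCm38. The windows were searched on both strands for ACAAT, the core recognised by SOX proteins, which reads ATTGT on the other strand. The core was present in 7 of those 32 windows (21.9%) against 31% of 32851 windows of all genes, and the longer AACAATG, which contains the core, in 3 (9.38%) against 3.78%. The windows of E330013P04Rik (chr19:60144425-60144724, plus strand), AI427809 (chr4:53270183-53270482, minus strand) and Malat1 (chr19:5802623-5802922, minus strand) are shown because these genes differed in opposite directions between the organs or rose in the Sox9-deleted testis. Capitals mark the core on either strand.
E330013P04Rik: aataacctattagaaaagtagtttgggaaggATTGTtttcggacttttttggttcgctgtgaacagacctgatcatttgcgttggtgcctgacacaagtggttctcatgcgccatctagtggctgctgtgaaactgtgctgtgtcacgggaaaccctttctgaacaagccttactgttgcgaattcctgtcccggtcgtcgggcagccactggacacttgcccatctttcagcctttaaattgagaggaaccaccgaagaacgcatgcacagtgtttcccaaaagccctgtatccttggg
AI427809: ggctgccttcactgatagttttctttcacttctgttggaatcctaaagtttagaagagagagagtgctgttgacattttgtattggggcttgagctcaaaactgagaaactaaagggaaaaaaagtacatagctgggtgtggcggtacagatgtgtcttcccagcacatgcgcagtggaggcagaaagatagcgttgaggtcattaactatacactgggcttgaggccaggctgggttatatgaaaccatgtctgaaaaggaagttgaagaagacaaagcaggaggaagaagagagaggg
Malat1: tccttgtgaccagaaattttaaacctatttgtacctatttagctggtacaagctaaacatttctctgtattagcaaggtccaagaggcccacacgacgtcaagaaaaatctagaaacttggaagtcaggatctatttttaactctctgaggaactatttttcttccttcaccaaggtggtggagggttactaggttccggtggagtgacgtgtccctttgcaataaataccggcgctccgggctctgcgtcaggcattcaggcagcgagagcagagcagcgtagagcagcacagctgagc
The E330013P04Rik window holds 1 core, and the other two hold none. A match is a description of letters and not a binding site.

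The lincRNAs were mostly low. Their median mean level was 2.62 log2 CPM, 65 lay under 2 and 19 reached 5. The median was 3.50 for 12825 autosomal protein-coding genes, to which no minimum level was applied, so these medians are of unlike sets. The longest transcripts had a median of 2 exons against 8 for the 10895 autosomal coding genes of the same minimum. Their median GC content was 45.1% against 49.1%. The 3 genes just inside the limit were Gm26779 at 1.01, Gm16702 at 1.02 and 2810425M01Rik at 1.03, and those just outside were Gm26776 at 0.963, Gm6410 at 0.957 and 9530052C20Rik at 0.934. By derived level, 151 genes reached 1 in all 3 groups, 23 in 2 groups and 6 in 1 group. Despite the class name, 137 of the 180 overlapped another annotated gene and 115 overlapped a gene on the opposite strand. Whether reads were counted by strand is not given in the sources used here, so reads of overlapping partners may be mixed in these values.

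The highest mean belonged to Gm42418, at 15.2 log2 CPM (chr17:39846958-39848788). It overlaps Rn18s-rs5, an 18S ribosomal RNA-related sequence for which RefSeq lists Gm42418 as a synonym, so its reads are of ribosomal RNA type. Gm26917 lies 617 bases away at 5.23 log2 CPM. Malat1, a nuclear speckle RNA, followed at 12.2, then Gm26905 at 9.23, Gm17275 at 8.79 and 1700020I14Rik, the conserved lincRNA Cyrano, at 7.94. The remaining genes of the top 10 were Gm26669, Gm26899, Gm26582, Gm26883 and Gm26735, between 6.33 and 7.78, and each overlaps a coding gene on the opposite strand (Zfp36l1, Zfp106, Cdkl2 with G3bp2, Tshz2 and Sox4). None of these 10 except Malat1 was called between the testes. Cyrano had group levels of 7.88 in XY-WT, 8.04 in XY-KO and 7.90 in XX-WT, and its fold changes did not pass the test in the authors' deposited tables (adjusted p = 0.588 and 0.956 against XY-WT, limma).

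The tissue labels were checked on the targeted gene and on marker genes. Sox9 fell 6.78-fold in XY-KO (95% interval 5.26 to 8.75), from a derived level of 6.48 to 3.72 log2 CPM, against 2.01 in XX-WT. All 8 Sertoli cell markers were lower in XY-KO, as was 1 of 5 interstitial markers (Ptch1), while 0 of 7 pre-granulosa and 0 of 4 measured Leydig markers were called. In XX-WT, 7 of 7 pre-granulosa, 5 of 5 meiotic and 3 of 5 germ cell markers were higher than in XY-WT, and 4 of 4 Leydig and 5 of 5 interstitial markers were lower. Of the mesonephric markers 4 of 5 were higher and 1 was lower in XX-WT, with summed levels of 6.17 log2 CPM in XY-WT, 6.54 in XY-KO and 7.71 in XX-WT. These sums lie close to Emx2, the highest of the 5, at 5.86, 6.35 and 7.57 in the same order. The lower marker was Lhx1, at 3.39, 2.93 and 1.48. Summed in the same order, Leydig markers had 9.26, 9.23 and 4.41, and interstitial markers 9.38, 9.29 and 8.05. Of 2 measured muscle genes, Myh8 was higher in XY-KO (3.17-fold) and both were higher in XX-WT, with summed levels of 2.49 in XY-WT, 4.23 in XY-KO and 4.61 in XX-WT. Acta1 and Myod1 were also on the muscle list but were not found among the measured genes. The part of these cell markers in the lincRNA values was not tested.

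The comparison of XY-KO with XY-WT asks which lincRNAs respond when Sertoli cells lose Sox9. Few lincRNAs passed the test one by one, and those that did were higher in the mutant testis. Of 180 lincRNAs 4 were called at an adjusted p under 0.05 in the authors' deposited table (limma with Benjamini-Hochberg adjustment over all genes), or 2.22%, beside 2.27% of all genes. The 4 were Gm20342, Gm26584, 4933411E06Rik and Malat1. The share is near the background, so the count is not a result about lincRNAs. It depends on the adjustment: made over the 3 comparisons together, it called 21 lincRNAs, all higher, or 11.7% beside 6.03% of all genes.

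Malat1 (chr19:5795690-5802672), an abundant nuclear RNA that associates with splicing factors, had derived levels of 11.67 log2 CPM in XY-WT, 12.76 in XY-KO and 12.18 in XX-WT. It was 2.13-fold higher in XY-KO than in XY-WT (95% interval 1.43 to 3.18), with an adjusted p of 0.0488 in the authors' deposited table (limma). The ovary lay between the testes, and its 1.43-fold difference from XY-WT did not pass (adjusted p = 0.181 in the authors' deposited table, limma). Neat1, the scaffold of paraspeckles, lies 22036 bases from Malat1 on the same strand. Its levels were 3.52 in XY-WT, 4.67 in XY-KO and 4.57 in XX-WT. Neat1 missed the threshold in XY-KO (2.23-fold, 1.45 to 3.42) at an adjusted p of 0.0513 in the authors' deposited table (limma) and passed in XX-WT (2.08-fold, 1.35 to 3.18) at 0.0149. The Malat1 call is at the edge of the threshold in the same way, and after subtracting the trend of fold change on GC content and length its adjusted p was 0.0919.

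Gm20342 (chr1:63117118-63126837) is a single-exon transcript that starts 2451 bases from Ino80d, a chromatin remodelling subunit, and runs in the opposite direction. Its levels were 3.73 log2 CPM in XY-WT, 4.76 in XY-KO and 4.26 in XX-WT, a 2.04-fold rise in XY-KO (1.50 to 2.79; adjusted p = 0.0168 in the authors' deposited table, limma). It overlaps Ino80dos on the same strand, a second lincRNA, whose value in XY-KO was 0.59 on the log2 scale with an adjusted p of 0.134 in the authors' deposited table (limma). Ino80d itself was 1.05-fold higher, with an adjusted p of 0.799.

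Gm26584 (chr8:40862395-40865647) lies on the opposite strand inside Slc7a2, which encodes a transporter of cationic amino acids. The lincRNA stood at 2.05 log2 CPM in XY-WT, 3.43 in XY-KO and 3.80 in XX-WT. It was 2.60-fold higher in XY-KO (1.68 to 4.03; adjusted p = 0.0224 in the authors' deposited table, limma) and 3.35-fold higher in XX-WT (2.19 to 5.13; adjusted p = 0.000354). For Slc7a2 the corresponding levels were 6.27, 6.61 and 7.80, with an adjusted p of 0.148 in XY-KO and 1.355e-07 in XX-WT in the authors' deposited tables (limma). Both genes were thus highest in the ovary, and only the lincRNA was called in the mutant testis, a difference between the genes that was not tested.

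4933411E06Rik (chr1:50107470-50108962) is a single-exon gene 791685 bases from the nearest coding gene. Its levels were 0.46 log2 CPM in XY-WT, 1.75 in XY-KO and 1.25 in XX-WT, so it passed the minimum by only a small margin on its mean of 1.15. The rise in XY-KO was 2.44-fold (1.52 to 3.90; adjusted p = 0.0484 in the authors' deposited table, limma), and after subtraction of that trend the adjusted p was 0.0615.

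Beyond the called genes, values in XY-KO leaned upward. The median log2 fold change of the 180 lincRNAs was 0.34, and 140 were positive, while the median was -0.04 for 10895 autosomal coding genes of the same minimum, of which 43.5% were positive. At an unadjusted p under 0.05, 62 lincRNAs were higher and 5 lower, 37.2% in all, against 18.9% of all genes (1341 higher and 1558 lower). The median standard error of a single lincRNA was 0.26, so most of these shifts cannot be told from 0 gene by gene. By derived level, XY-WT was the lowest group for 105 lincRNAs and XY-KO the highest for 103. Both comparisons against XY-WT share its 3 samples.

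**Figure D1:**
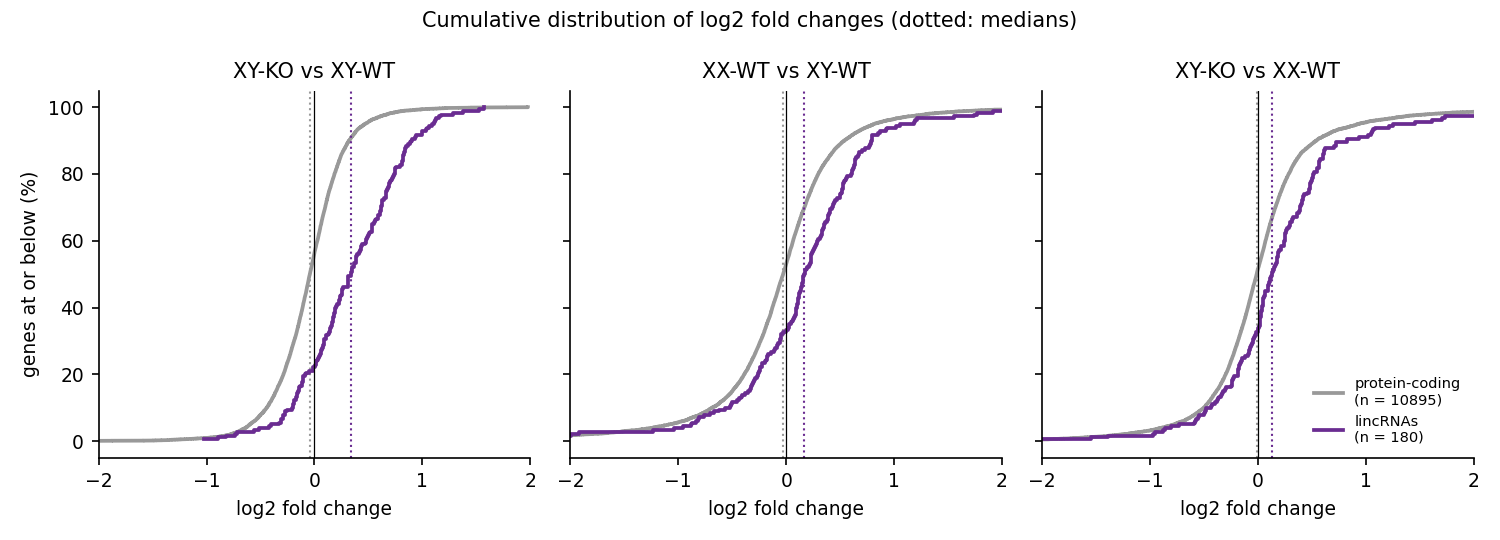
Cumulative share of genes (vertical axis, percent) at or below each log2 fold change (horizontal axis) for 180 lincRNAs in purple and 10895 autosomal protein-coding genes in grey, in the 3 group comparisons. The lincRNA curve lies furthest to the right in XY-KO against XY-WT, where the dotted medians are 0.34 and -0.04, and nearer to the coding curve in the others, where the lincRNA medians are 0.17 and 0.13.

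The upward lean was found at each level of expression. The median was 0.39 for 65 lincRNAs with means from 1 to 2, 0.33 for 44 from 2 to 3, 0.39 for 52 from 3 to 5 and 0.16 for 19 above. Coding genes in the same bins had medians of -0.07, -0.07, -0.06 and -0.00. After subtraction of the trend on GC content and length, the lincRNA median was 0.35 with 142 genes positive. In the same bins of level, lincRNA medians were then 0.46, 0.34, 0.34 and 0.15, and those of coding genes 0.09, 0.05, 0.00 and -0.02. That trend was fitted only over genes at or above the median mean level. Before that subtraction, the lincRNA median by GC content was 0.46 below 40% and 0.53 from 40 to 45%. It was 0.24 from 45 to 50% and 0.11 above 50%, while coding genes went from 0.12 to -0.16 over the same range. With the trend subtracted, the lincRNA medians in the same order were 0.39, 0.49, 0.26 and 0.28. Those of coding genes were then 0.01, -0.004, 0.01 and 0.01.

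The values are also described by position and gene structure, with no test between the sets. The 50 lincRNAs more than 5 kb from every coding gene had a median of 0.48, with 43 positive, and the 80 with exons on the opposite strand of a coding gene had 0.23, with 58 positive. Those with exons within a coding gene on the same strand (14 genes) had a median of 0.62. The 43 genes that overlap no other gene had 0.34. Single-exon lincRNAs (19 genes, of which 3 of the 4 called) had 0.64, those with 2 exons 0.33 and those with 3 or more 0.25. Other non-coding classes had positive medians too. The median was 0.91 for 17 sense-intronic genes and 0.46 for 14 snoRNA genes, all of them positive, 0.25 for 120 processed transcripts and 0.09 for 299 antisense genes. Unlike the lincRNAs, these classes were not limited to autosomes or cleared of imprinted transcripts. Airn and Kcnq1ot1 are among the antisense genes and Rian among the processed transcripts. The part of intronic or unspliced reads in these values was not tested.

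**Figure D2:**
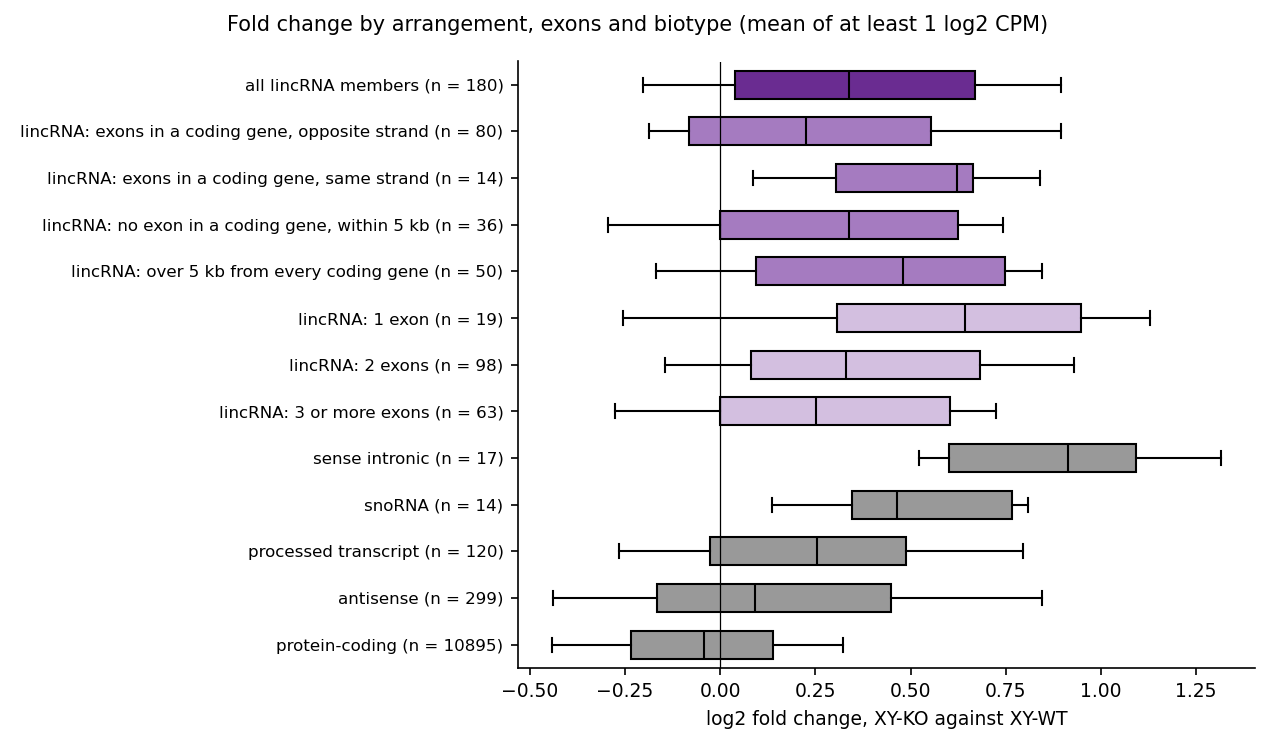
Log2 fold change of XY-KO against XY-WT (horizontal axis) for the lincRNAs by arrangement and exon number and for other annotated classes, all with a mean of at least 1 log2 CPM. The other non-coding classes were not limited to autosomes or cleared of imprinted transcripts. Boxes span the quartiles with the median as a line, and whiskers run from the 10th to the 90th percentile over genes. The lincRNA median is 0.34, the sense-intronic median 0.91 and the protein-coding median -0.04.

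The low values in XY-KO included Gm42418 and its neighbour Gm26917. The latter went from 5.72 log2 CPM in XY-WT to 4.69 in XY-KO, with 5.28 in XX-WT, and its difference between the testes had an adjusted p of 0.203 in the authors' deposited table (limma). Gm42418 had 15.7, 15.0 and 15.0 in the same order, with an adjusted p of 0.219. Neither passed the test.

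The comparison of XX-WT with XY-WT asks which lincRNAs distinguish the fetal ovary from the testis. Of 180, 30 were called in the authors' deposited table (limma), 19 higher and 11 lower in the ovary, or 16.7% beside 23.3% of all genes. The log2 fold changes of the called genes ranged from 3.61 for Gm26700 to -3.75 for Gm26870. The median log2 fold change was 0.17, with 120 positive. By mean level, 6 of 65 lincRNAs from 1 to 2 were called (9.23%, beside 21.9% of autosomal coding genes in that range), 10 of 44 from 2 to 3 (22.7% beside 23.2%) and 12 of 52 from 3 to 5 (23.1% beside 23.0%). Above 5, 2 of 19 were called (10.5% beside 24.7%). The median standard errors in the lowest range were 0.32 for lincRNAs and 0.29 for coding genes.

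E330013P04Rik (chr19:60144675-60162591) had the smallest adjusted p of the ovarian lincRNAs. It is a 3-exon gene 35995 bases from any coding gene and overlaps none. Its levels were 3.65 log2 CPM in XY-WT, 4.37 in XY-KO and 5.92 in XX-WT. The ovary was 4.83-fold above the control testis (3.68 to 6.35; adjusted p = 3.023e-07 in the authors' deposited table, limma). The Sox9-deleted testis was 1.65-fold above it (1.23 to 2.21), which missed the threshold at an adjusted p of 0.0711 in the authors' deposited table (limma).

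Gm26700 (chr10:92162103-92164690) overlaps Rmst, a lincRNA known from neural progenitors. The levels were 0.15 log2 CPM in XY-WT, 0.86 in XY-KO and 3.76 in XX-WT, so it was close to the bottom of the measured range in both testes. The ovary was 12.2-fold higher than XY-WT (6.34 to 23.4; adjusted p = 2.157e-05 in the authors' deposited table, limma). Gm26659 (chr8:68218173-68228413), 6146 bases from Psd3, had 1.55, 2.08 and 3.46 in the same order and was 3.77-fold higher in the ovary (2.46 to 5.79; adjusted p = 0.000157 in the authors' deposited table, limma). Psd3 was not called (log2 fold change 0.14).

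Other lincRNAs higher in the ovary lie in or beside coding genes. Gm26603, on the opposite strand inside the formin gene Fmnl2, was 2.93-fold higher (1.57 to 5.48), with levels of 2.95 in XY-WT, 3.77 in XY-KO and 4.50 in XX-WT. Fmnl2 itself was 2.43-fold higher. Gm20707 starts 52 bases from the zinc finger gene Zfp984 on the same strand and shares exon positions with it, and the fold differences in the ovary were 2.32 for the lincRNA and 1.81 for Zfp984. 1300002E11Rik, on the same strand as Map3k13 with a start 28 bases away, was 2.29-fold higher (1.63 to 3.21), while Map3k13, at a log2 fold change of -0.42, was not called. Their adjusted p-values in the authors' deposited table (limma) were 0.0145 for Gm26603, 0.00224 for Gm20707 and 0.00129 for 1300002E11Rik.

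The remaining ovarian lincRNAs by the naming rule were 2610028E06Rik, Gm28151, D230017M19Rik and Gm26981, with log2 fold changes of 1.02, 0.93, 0.85 and 0.80 and adjusted p between 0.00777 and 0.0410 in the authors' deposited table (limma). Gm28151 lies on the same strand within Slc39a10, a zinc transporter gene that was not called. Rab30, the coding gene nearest to Gm26981, was lower in the ovary, at a log2 fold change of -0.92 (adjusted p = 0.0118 in the authors' deposited table, limma), the opposite direction to the lincRNA.

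**Figure D3:**
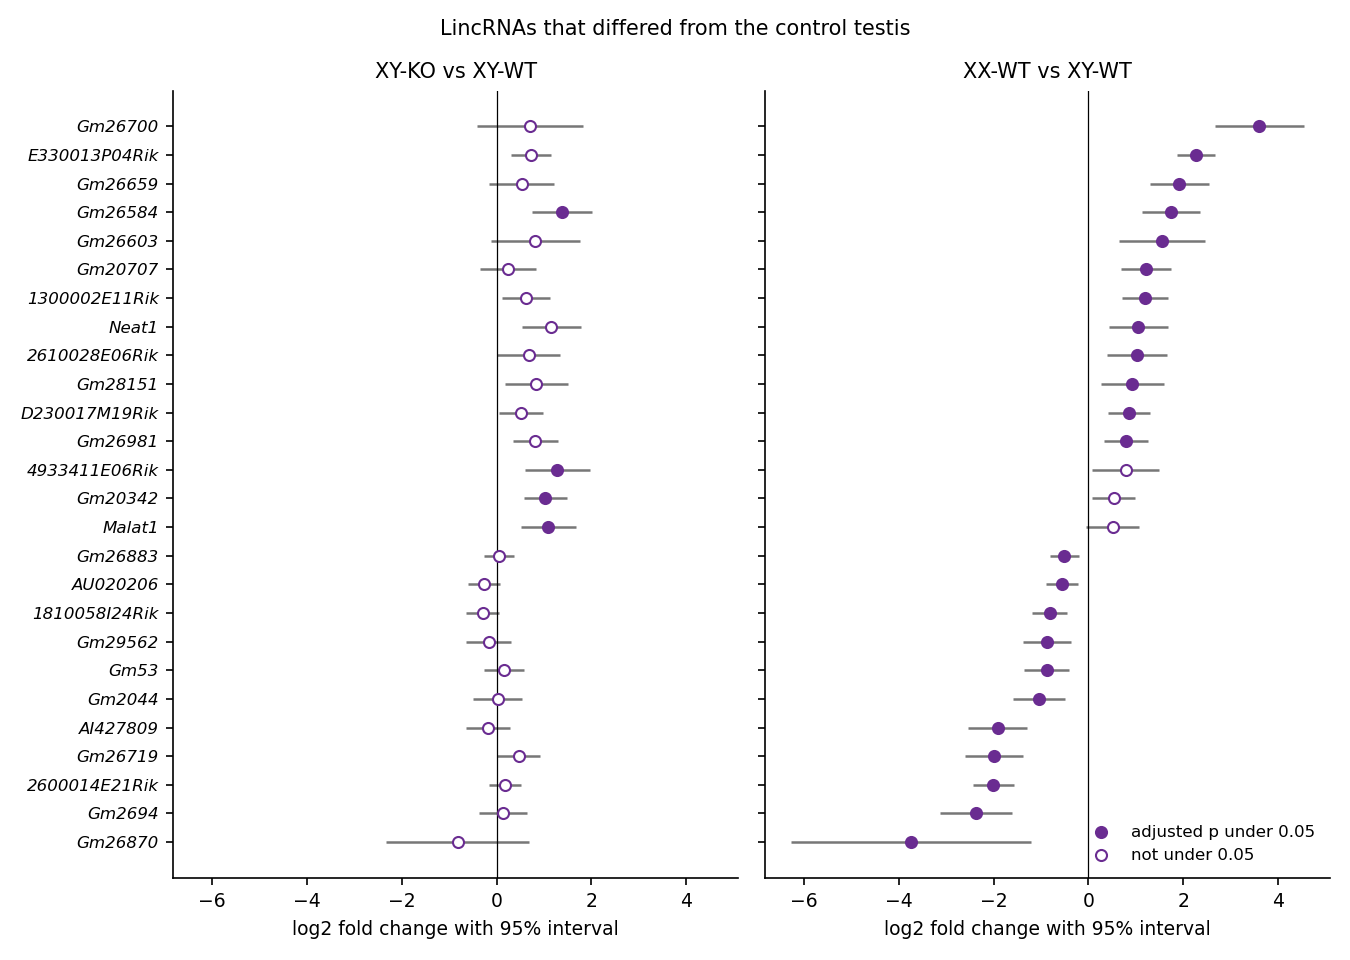
Log2 fold change with 95% interval (horizontal axis) of the lincRNAs called between the testes and of those named from the ovary comparison, for XY-KO against XY-WT on the left and XX-WT against XY-WT on the right. Filled points have an adjusted p under 0.05, which holds for 4 lincRNAs on the left, and the interval is widest for Gm26870.

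LincRNAs lower in the ovary, and so higher in the testis, included Gm2694 (chr8:87460469-87525554). It starts 12140 bases from Cbln1, a secreted synaptic organiser gene, and overlaps it on the other strand, although none of its exons lies in the coding gene. Its levels were 2.83 log2 CPM in XY-WT, 2.98 in XY-KO and 0.46 in XX-WT, and the ovary was 5.18-fold lower (3.06 to 8.77; adjusted p = 0.000147 in the authors' deposited table, limma). Cbln1 had levels of 5.23, 5.06 and -0.80 and was 65.5-fold lower in the ovary (adjusted p = 2.648e-08 in the authors' deposited table, limma). Both genes stood within 0.2 of the control level in the Sox9-deleted testis.

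2600014E21Rik (chr2:75138843-75317820) is a 6-exon lincRNA 260412 bases from the nearest coding gene, in the gene-poor region beside Mtx2. The levels were 3.86 log2 CPM in XY-WT, 4.03 in XY-KO and 1.84 in XX-WT. The ovary was 4.04-fold lower (2.99 to 5.45; adjusted p = 2.997e-06 in the authors' deposited table, limma). Gm13652, which starts 1045 bases away and runs the other way, had a log2 fold change of -0.46 that did not pass (adjusted p = 0.218 in the authors' deposited table, limma).

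Gm26719 (chr6:21985908-22067687) runs on the opposite strand of Cped1, with levels of 3.41 log2 CPM in XY-WT, 3.88 in XY-KO and 1.41 in XX-WT. It was 3.99-fold lower in the ovary (2.63 to 6.06; adjusted p = 8.596e-05 in the authors' deposited table, limma), and Cped1 was 4.47-fold lower. AI427809 (chr4:53261356-53270232), named Mexis in RefSeq, is known in macrophages as a lincRNA that acts on the cholesterol transporter gene Abca1. Its levels were 2.36 in XY-WT, 2.17 in XY-KO and 0.44 in XX-WT, so the ovary was 3.78-fold lower (2.47 to 5.79; adjusted p = 0.00015 in the authors' deposited table, limma). Abca1, 101461 bases away, was 1.46-fold lower in the ovary (adjusted p = 0.0037). Of the macrophage markers, 1 of 3 measured was higher in the ovary and 0 were lower. Cped1 and Abca1, whose starts lie further than 50 kb away, were chosen after their values were seen.

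Gm2044 (chr7:139957005-139958039), the host of miR-202, had 5.08 log2 CPM in XY-WT, 5.10 in XY-KO and 4.04 in XX-WT. The ovary was 2.06-fold lower than the control testis (1.41 to 3.01; adjusted p = 0.008 in the authors' deposited table, limma). The Sox9-deleted testis differed from the control by 1.01-fold, with an interval from 0.708 to 1.45. Utf1, the nearest coding gene and a gene of undifferentiated germ cells, behaved otherwise, with a 2.22-fold fall in XY-KO (adjusted p = 0.0277 in the authors' deposited table, limma) and no call in the ovary.

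Smaller differences of the same direction were found for Gm53, which lies in the Hoxb cluster 20352 bases from the start of Hoxb9, for Gm29562, 1810058I24Rik and AU020206, and for Gm26883 opposite Tshz2. Their log2 fold changes were -0.89, -0.87, -0.82, -0.57 and -0.51, with adjusted p between 0.00254 and 0.0203 in the authors' deposited table (limma). Hoxb9 had -0.65 and did not pass, while Tshz2, a zinc finger transcription factor gene named after its value was seen, had -0.41 and passed. Gm26870 (chr9:3000282-3038313) had the largest fall, from 3.03 in XY-WT to -0.72 in XX-WT, but its interval ran from 2.33 to 77.6-fold. It overlaps 9 near-identical predicted coding genes, between which reads may be split, and is uncertain.

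**Figure D4:**
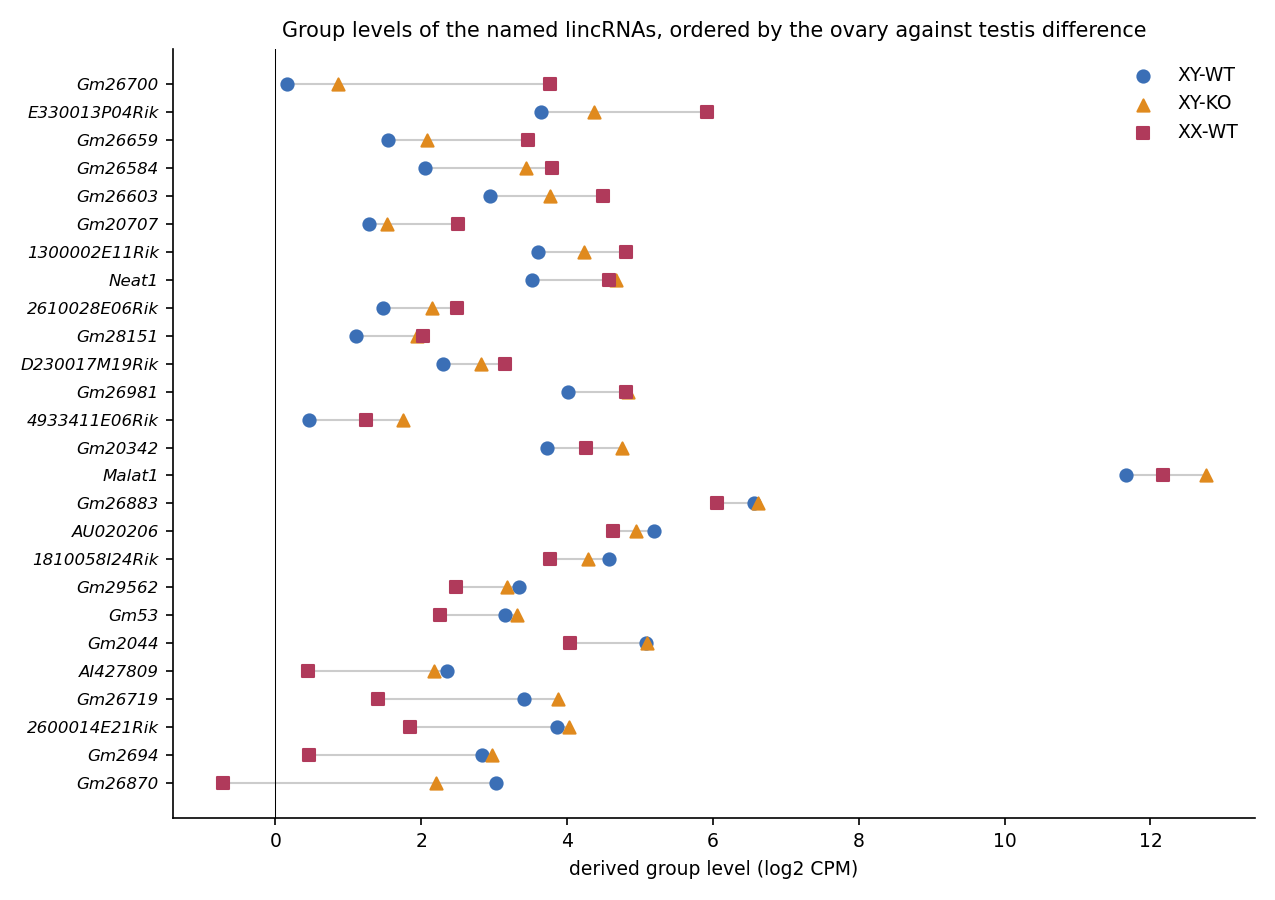
Derived group levels in log2 CPM (horizontal axis) for the same lincRNAs, with XY-WT as circles, XY-KO as triangles and XX-WT as squares, ordered by the difference between ovary and testis. Each point is 1 group level without an error bar. Gm26700 has 0.15, 0.86 and 3.76 in XY-WT, XY-KO and XX-WT, and Gm2694 has 2.83, 2.98 and 0.46.

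The comparison of XY-KO with XX-WT asks how far the Sox9-deleted testis stands from the ovary. It shares its samples with the other comparisons, so its values are given beside them and not as further support. Of 180 lincRNAs 29 were called in the authors' deposited table (limma), 20 higher and 9 lower in XY-KO, or 16.1% beside 18.3% of all genes. Across all 3 comparisons 131 of the 180 lincRNAs were called in none. The matching count over all genes is not given here, so this is a description.

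The lincRNAs with the largest called differences were those already described. Gm2694 was 5.73-fold higher in XY-KO than in the ovary (3.40 to 9.64), Gm26719 5.53-fold (3.68 to 8.31) and 2600014E21Rik 4.56-fold (3.39 to 6.13). On the other side Gm26700 was 7.47-fold lower (4.41 to 12.7), E330013P04Rik 2.92-fold (2.27 to 3.77) and Gm26659 2.61-fold (1.78 to 3.83). The adjusted p of these 6 lay between 1.446e-06 and 0.00125 in the authors' deposited table (limma). These 6 were picked for the size of this difference, so their distance from the ovary is a description. Their log2 fold changes from the control testis ran from 0.14 to 0.73. Gm26584 and Neat1 differed from the ovary by 1.29-fold (0.910 to 1.82) and 1.07-fold (0.728 to 1.58), and neither passed the test.

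Other genes called in this comparison were named after their values were seen. Gm28258, 5303 bases from Nr2f2, a transcription factor gene of interstitial cells, had 1.50 log2 CPM in XY-WT, 2.32 in XY-KO and 0.26 in XX-WT and was 4.17-fold higher in XY-KO than in the ovary (2.29 to 7.59), and Nr2f2 was 1.89-fold higher. A430106G13Rik, which contains miR-181b, stood at 2.45, 3.58 and 2.13 and was 2.75-fold higher (1.57 to 4.80). Gm26945 and B830012L14Rik lie between Meg3 and Mirg in the imprinted region of chromosome 12, and the rule did not remove them. They were 2.33-fold and 2.13-fold higher in XY-KO than in the ovary. Adjusted p for these 4 lincRNAs lay between 0.00192 and 0.0128 in the authors' deposited table (limma).

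The lincRNAs with established names were few. Here and in the lists below, names were matched by GENCODE symbol. Of 16 names of nuclear and housekeeping RNAs 3 were among the 180 in this way, Malat1, Neat1 and Dubr. A further listed name, Oip5os1, is the RefSeq symbol of 1700020I14Rik (Cyrano), which is among the 180 and described above. Dubr, a myogenic lincRNA, had 2.66 log2 CPM in XY-WT, 2.77 in XY-KO and 2.16 in XX-WT and passed only between XY-KO and the ovary, 1.52-fold (1.14 to 2.03; adjusted p = 0.0429 in the authors' deposited table, limma). Of 19 hosts of small nucleolar RNAs 5 were included, Snhg6, Snhg12, Snhg18, Snhg20 and Epb41l4aos, and 0 were called in any comparison. Snhg18, the one with the largest fold change against XY-WT, had levels of 3.67, 3.25 and 3.0 in XY-WT, XY-KO and XX-WT.

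Of 18 microRNA host names 2 were included. Mir17hg, the primary transcript of a proliferation-linked microRNA cluster, had 3.68, 3.92 and 4.36 log2 CPM in the same order and was not called. Carmn, a lincRNA of smooth muscle, had 1.32, 2.07 and 0.36 and was 3.27-fold higher in XY-KO than in the ovary (1.97 to 5.45; adjusted p = 0.00228 in the authors' deposited table, limma), while its differences from the control testis did not pass. 6720427I07Rik, which contains the 3 let-7 genes shown above, had 4.64, 5.07 and 4.58 and was not called. Of 37 names listed beside developmental regulators only Gm26917 was included, and it lies beside the ribosomal RNA-related gene instead. Gm26735, opposite Sox4, had 6.36, 6.61 and 6.00 and was 1.53-fold higher in XY-KO than in the ovary (1.16 to 2.01), with Sox4 1.46-fold higher.

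LincRNAs and the nearest coding gene, start site to start site, were set side by side for 148 pairs in which both were measured. Between ovary and testis, Pearson's r across pairs was 0.56 within 5 kb (38 pairs), 0.56 from 5 to 50 kb (79 pairs) and 0.31 beyond (31 pairs). Pairs of coding genes had 0.28, 0.19 and 0.12 at the same distances. The pairs share libraries, and some share a locus or overlap, so these are descriptions. Single pairs carried part of them, since r was 0.41 without Gm26584, 0.34 without Gm2694 and 0.14 without Gm26719, each from its own distance class. Between the testes r was 0.34, 0.34 and 0.12, beside 0.23, 0.24 and 0.09 for pairs of coding genes, and no called lincRNA had a called neighbour. Of the lincRNAs called between ovary and testis the neighbour was also called for 2 of 3 within 5 kb, 4 of 14 at 5 to 50 kb and 5 of 9 beyond, against 21.5%, 24.2% and 29.3% for coding genes.

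**Figure D5:**
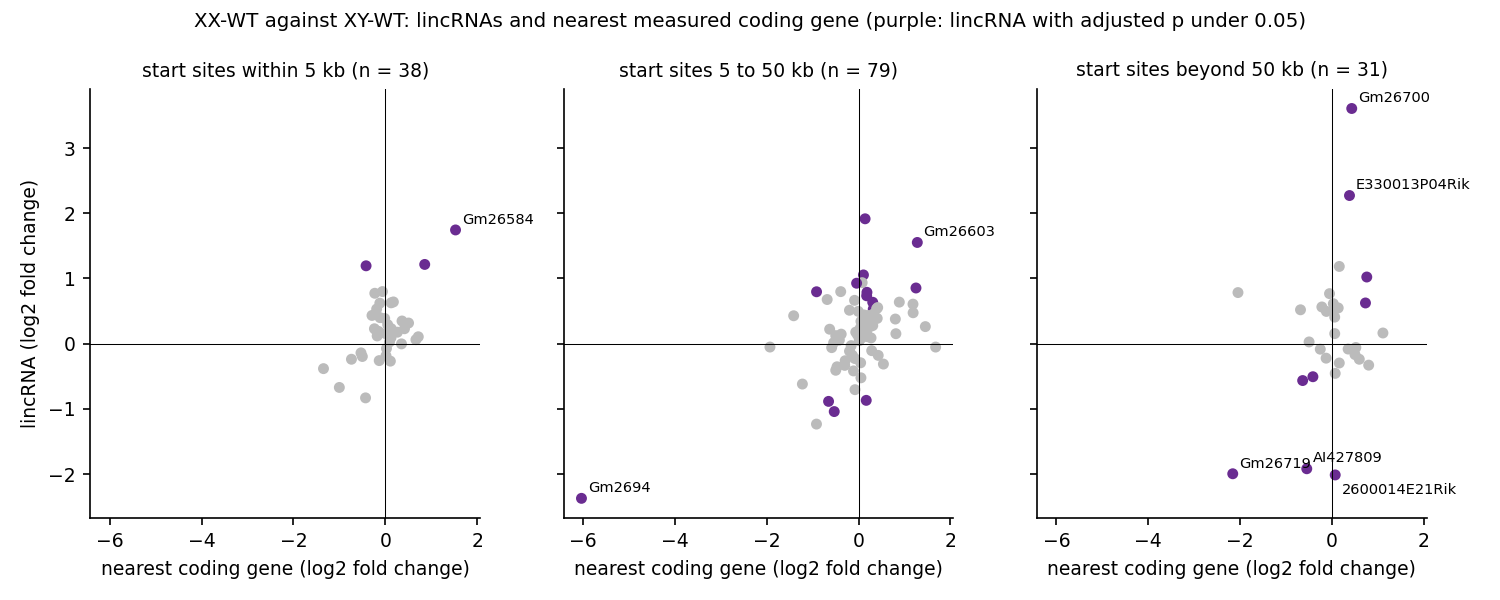
Log2 fold change of XX-WT against XY-WT for each lincRNA (vertical axis) and its nearest measured coding gene (horizontal axis), split by the distance between start sites, with lincRNAs of adjusted p under 0.05 in purple. The panels hold 38, 79 and 31 pairs, and Gm2694 with Cbln1 lies far to the lower left of the middle panel.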

How the data were processed

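The values came from 3 tables that the authors deposited, one for each pair of groups, over the same 15300 genes. Per the file headers, each holds the authors' log2 fold change and mean log2 expression, the authors' limma scores (moderated t and log-odds) and the deposited p-value, raw and after Benjamini-Hochberg adjustment. The submitters' processing notes name Trimmomatic 0.30, TopHat2 2.0.8, HTSeq 0.6.1p1 and limma 3.24.0 and the GRCm38 build, and per the labels' protocols the RNA was amplified with a method that leaves out ribosomal RNA. Strand counting and the filter on genes are not given in the sources used here. No per-sample values were used, so the depth is unknown, and no interval for counting error was computed.

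Recomputed adjustment matched the deposited values within a relative difference of 0.000769, and the 3 fold changes closed within 0.005. Standard errors were the log2 fold change over t, with intervals at 15.27 degrees of freedom. Group levels assume equal group weights. GENCODE M21 gave biotype, position, length and GC content for 15192 genes, and RefSeq (GRCm38.p6) the sequences. The GC and length trend was a robust polynomial of degree 3, fitted over genes at or above the median mean level. Scripts used Python 3.11.15, pandas 2.3.3, scipy 1.17.1 and statsmodels 0.14.6, and were tested on simulated data.

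Genes called at an adjusted p under 0.05 are described. Those named were the lincRNAs called in XY-KO against XY-WT, the 12 largest called rises and falls in XX-WT and the 3 largest in XY-KO against XX-WT (higher group at 2 log2 CPM or more), the 10 highest means, 3 genes on each side of the limit and the listed lincRNAs. Neighbours within 50 kb and cell markers were also named. The lincRNAs and all lists were chosen with earlier results of these data known. Stricter thresholds, other adjustments, centring, trend removal, other minimums and position filters were tried.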

Additional observations from a re-analysis of the deposited data

How the results depend on the processing

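No paired analysis was possible because the deposited tables hold no per-sample values, and for the same reason leaving out single samples and the replicate block were not run. The 4 lincRNAs called in XY-KO against XY-WT became 21, all higher, when the adjustment was made over the 3 comparisons together, 0 at an adjusted p under 0.01 and 0 with Bonferroni adjustment (67 had an unadjusted p under 0.05), 1 of the 43 that overlap no other gene and 2 of the 50 over 5 kb from coding genes. The 30 called in XX-WT against XY-WT became 16 at the threshold of 0.01, 16 where at least 2-fold was required, 3 with Bonferroni adjustment, 58 with no minimum level, 11 among genes overlapping no other, 13 among those over 5 kb from coding genes and 17 among the 86 with no exon in a coding gene. The 29 called in XY-KO against XX-WT became 15, 17, 5, 52, 9 and 14 under the first 6 of these. Some of these sets hold fewer genes by construction. The other settings kept the counts within 1.5 times. Restricting the lincRNAs by level or position leaves the shares of all genes at 2.27%, 23.3% and 18.3%, in the order of the comparisons. With at least 2-fold required, 1836 of all 15300 genes were called in XX-WT against XY-WT and 1540 in XY-KO against XX-WT. For the threshold of 0.01 and Bonferroni adjustment no share of all genes is given, so those counts describe the settings only.

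The median log2 fold change of the lincRNAs in XY-KO against XY-WT was 0.31 to 0.48 under the 9 settings tried, and the medians of the other comparisons moved by less than a median standard error. Without Gm26945 and B830012L14Rik, a setting chosen after seeing the data, 4, 30 and 27 were called. Among 46 named lincRNAs in 3 comparisons, centring on the median of all genes added the calls of Neat1 in XY-KO against XY-WT (adjusted p = 0.0491) and 1810058I24Rik in XY-KO against XX-WT (0.0492). Subtracting the trend on GC content and length added 1810058I24Rik (0.0410) and Gm29562 (0.0260) in XY-KO against XX-WT and ended the calls of Malat1, 4933411E06Rik and, in XX-WT against XY-WT, Gm28151 (0.0793). Adjustment over the 3 comparisons together added Neat1, E330013P04Rik, Gm26905 and Gm26981 in XY-KO against XY-WT and ended Gm28151 (0.0571) and, in XY-KO against XX-WT, Dubr (0.0512). Bonferroni adjustment ended 33 of 41 calls. Cyrano changed sign after trend subtraction, to -0.00073 and -0.10 in XY-KO and XX-WT against XY-WT, neither being called. The causes were not tested.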
